A study of Mus musculus with 7 samples.

Results

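The integrin and laminin genes were examined in nuclei of cultured BB-p53n OPCs. Genes were taken by symbol, as the integrin alpha chains (*Itga* with a number or one of the letters v, m, x, l, e and d), the integrin beta chains (*Itgb*) and the laminin chains (*Lama*, *Lamb* and *Lamc*). Of the 33696 genes in the matrix, 37 met this rule, of which 18 were alpha chains, 8 were beta chains and 11 were laminin chains. BB-p53n OPCs are primary oligodendrocyte progenitor cells (OPCs) from the brains of early postnatal *Trp53*fl/fl C57BL/6 pups of either sex, selected with an antibody to CD140a, the PDGFRα protein. A PDGFB-IRES-CRE retrovirus then deleted *Trp53* and overexpressed PDGFB, so every nucleus described here came from a culture carrying both changes, and OPCs without them were not analysed here. The study lists 7 samples, and the 6 from brains at an early or late stage after injection of these cells did not enter the values given here. The culture was 1 library of single-nucleus RNA-seq, so there was no replicate and no test was run.

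Integrins are cell surface receptors built from 1 alpha and 1 beta chain. Most alpha chains pair with *Itgb1*, and the pairing decides which extracellular matrix proteins a cell can hold. Laminins are secreted trimers of 1 alpha, 1 beta and 1 gamma chain, a main component of basement membranes and a ligand of the *Itga6*-*Itgb1* pair. In the oligodendrocyte lineage, *Itga6*-*Itgb1* is known as a laminin receptor linked to survival and myelination, and *Itgav* is known to change beta partners as OPCs differentiate. OPCs are defined by the receptor *Pdgfra*, and nuclei were therefore split by its count of unique molecular identifiers (UMIs, counted transcripts), 0 against 2 or more.

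Of 10047 deposited barcodes, 8917 nuclei had 2000 to 8000 detected genes and were kept. They held 141138093 UMIs, with a median of 13771 per nucleus and a range of 3153 to 52240. *Pdgfra* had 0 UMIs in 2341 nuclei, 1 in 1000 nuclei and 2 or more in 5576 nuclei. The groups differed in depth, with a median of 10621 UMIs per nucleus at 0 *Pdgfra* UMIs and 16258 at 2 or more. They also differed in sex-linked transcripts, since 62.0% of the nuclei with 0 *Pdgfra* UMIs had UMIs of *Xist*, the RNA of the inactive X chromosome, and none of 4 Y-linked genes, against 6.21% at 2 or more. Levels are given in CPM, counts per 1000000, the UMIs of a gene scaled to the total of the group. Intervals are 95% exact intervals and cover counting error only. The OPC label was checked against 4 markers other than *Pdgfra*, whose summed level was 807 CPM at 0 *Pdgfra* UMIs and 1133 CPM at 2 or more. *Olig2* had 231 and 310.2 CPM and *Sox10* had 20.1 and 107 CPM in the same order. Of 6 endothelial markers, the sum was 15.8 against 9.38 CPM. *Cldn5* was at 0 and *Cdh5* had 7 UMIs, while 3 of the 4 with at least 100 UMIs were at least 2-fold higher at 0 *Pdgfra* UMIs, namely *Tek* with a ratio of 5.90, *Kdr* with 2.23 and *Flt1* with 2.21. The remaining one, *Pecam1*, had the most UMIs (770) and went the other way. It had 4.04 and 5.65 CPM, a ratio of 0.716 (0.578 to 0.881). The part of nuclei with endothelial markers in the results below was not tested. The sum of 6 fibroblast or pericyte markers was 0.599 against 0.515 CPM, and that of 5 microglia and leukocyte markers was 8.01 against 7.22 CPM. Doublets were not removed, and the 8% of nuclei with the highest doublet scores made up 1.79% of the nuclei at 0 *Pdgfra* UMIs and 11.0% at 2 or more.

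The sequences before the transcript starts of 4 members are shown because these members moved in opposite directions between the *Pdgfra* groups. They were chosen after their values were seen. *Lama5* and *Itga6* were higher at 0 *Pdgfra* UMIs, and *Lama4* and *Itga8* were higher at 2 or more. Each is the 250 bases before the start of the gene's canonical transcript in GENCODE vM39, read from GRCm39 5′ to 3′ on the strand of the gene. The windows lie at chr2:179867713-179867962 (minus strand) for *Lama5*, chr2:71616969-71617218 (plus strand) for *Itga6*, chr10:38841261-38841510 (plus strand) for *Lama4* and chr2:12307215-12307464 (minus strand) for *Itga8*. None of the windows overlaps an annotated exon, and those of *Itga6* and *Lama4* lie inside the annotated span of the gene. Capitals mark matches, on either strand, to the TATA box TATAAA, the GC box GGGCGG, the E-box CANNTG or the CCAAT box.
Lama5: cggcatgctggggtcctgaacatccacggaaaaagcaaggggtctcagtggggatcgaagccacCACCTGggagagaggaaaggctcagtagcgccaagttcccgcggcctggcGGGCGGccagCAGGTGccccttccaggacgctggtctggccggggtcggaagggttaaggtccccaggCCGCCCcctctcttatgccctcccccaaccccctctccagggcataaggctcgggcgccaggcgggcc
Itga6: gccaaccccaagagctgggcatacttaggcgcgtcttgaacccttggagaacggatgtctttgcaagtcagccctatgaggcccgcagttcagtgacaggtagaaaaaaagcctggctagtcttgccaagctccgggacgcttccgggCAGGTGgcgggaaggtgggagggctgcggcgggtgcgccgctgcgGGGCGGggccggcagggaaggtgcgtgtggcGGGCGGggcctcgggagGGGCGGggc
Lama4: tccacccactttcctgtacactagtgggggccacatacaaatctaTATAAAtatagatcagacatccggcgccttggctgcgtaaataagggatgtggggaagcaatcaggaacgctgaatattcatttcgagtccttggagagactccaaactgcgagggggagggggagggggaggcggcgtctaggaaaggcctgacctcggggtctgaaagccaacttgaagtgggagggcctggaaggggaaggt
Itga8: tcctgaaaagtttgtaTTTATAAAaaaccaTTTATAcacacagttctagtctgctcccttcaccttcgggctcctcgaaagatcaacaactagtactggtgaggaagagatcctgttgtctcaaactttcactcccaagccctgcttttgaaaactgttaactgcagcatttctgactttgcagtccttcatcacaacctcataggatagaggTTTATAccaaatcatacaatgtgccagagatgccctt
The *Lama5* window held 2 GC boxes, 2 E-boxes and 15 CpG dinucleotides. That of *Itga6* held 3 GC boxes, 1 E-box and 20 CpG dinucleotides. The *Lama4* window held 1 TATA box and 9 CpG dinucleotides. The *Itga8* window held 4 TATA boxes, 2 of which overlap on opposite strands, and 2 CpG dinucleotides. Among windows of the same length at 21418 protein-coding genes, the TATA box was found in 11.9%, the GC box in 36.4%, the E-box in 64.8% and the CCAAT box in 36.5%, and the median number of CpG dinucleotides was 8. These matches describe letters in the windows, and binding was not measured.

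The culture expressed a small part of both families. Of the 37 members, 12 reached 10 CPM and 14 were under 1 CPM in the kept nuclei. The beta chain *Itgb1*, the partner of most alpha chains, led with 414 CPM (410.5 to 417). The laminin alpha chain *Lama4* followed with 209 CPM (207 to 211). *Itga8*, the alpha chain of a receptor for nephronectin and other ligands with an RGD site, had 159 CPM, and *Lamc1*, the gamma chain of most laminins, had 142 CPM. *Itgav*, an alpha chain with several beta partners, had 107 CPM and its partner *Itgb8* had 88.5 CPM. The collagen receptor chain *Itga1* had 69.4 CPM. The laminin receptor chain *Itga6* had 35.8 CPM, *Itga9* had 32.1 CPM and *Itga4* had 30.0 CPM. *Lamb1*, the beta chain of many laminins, had 25.5 CPM and *Lama1* had 16.4 CPM. The counting intervals of neighbours in this order did not overlap among these 12 genes. All other members were at 3.81 CPM or less, beginning with *Lamb3*, *Lama5* and *Itgb5* at 3.81, 3.73 and 3.65 CPM, whose neighbouring intervals overlapped.

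The counts of nuclear RNA hold introns, so long genes can gain counts, and levels were also compared per kb of annotated gene span. On this scale *Itgb1* led with 8.49 CPM per kb, followed by *Lama4* with 1.33, *Itgav* with 1.29, *Lamc1* with 1.24, *Itgb8* with 1.09 and *Itga8* with 0.809 CPM per kb. *Itga9*, whose gene spans 294 kb, moved from rank 9 by CPM to rank 13 per kb. The leading 7 members were the same on both scales, in another order.

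Several members known from other tissues were at or near 0, although the epithelial chain *Lamb3* had 538 UMIs or 3.81 CPM. *Itgb2*, the beta chain of leukocyte integrins, had 4 UMIs in all, and its partners *Itgal*, *Itgam*, *Itgad* and *Itgax* had 20, 16, 6 and 2 UMIs. *Itgb4*, which pairs with *Itga6* in hemidesmosomes, had 56 UMIs or 0.397 CPM. The muscle and Schwann cell laminin chain *Lama2* had 42 UMIs and the epithelial chain *Lama3* had 12 UMIs. As a measure of free RNA and doublets together, 3.45% of 1450 nuclei with 3 or more *Xist* UMIs had a Y-linked UMI, with a median depth of 12108 UMIs. In the reverse direction, 2.045% of 489 nuclei with 3 or more Y-linked UMIs had a *Xist* UMI. Of the 264 nuclei with both *Xist* and Y-linked UMIs, 51.9% had doublet scores in the highest 8%. The part of doublets in this measure was not tested. A low share of nuclei with a UMI is therefore not read as expression.

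**Figure D1:**
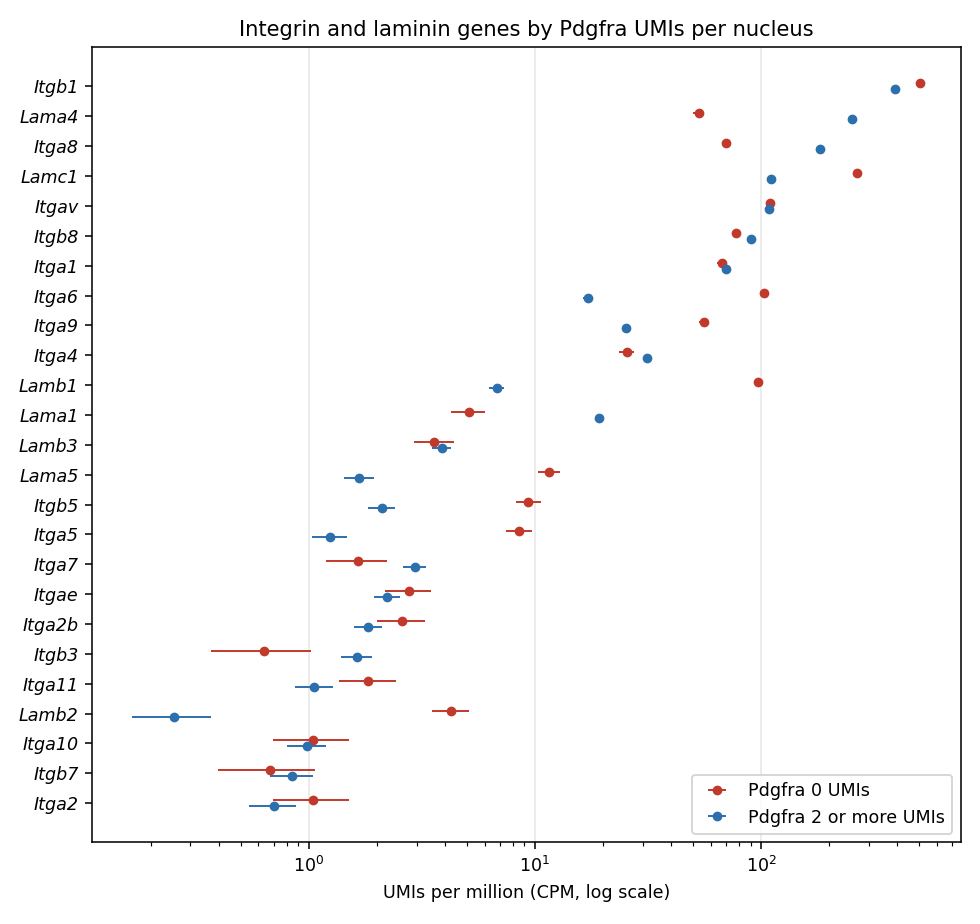
Level of 25 of the 26 integrin and laminin genes with at least 100 UMIs, in CPM on a log scale, in the 2341 nuclei with 0 *Pdgfra* UMIs (red) and the 5576 nuclei with 2 or more (blue). Points are levels of summed UMIs and bars are 95% exact Poisson intervals. *Lamb1*, *Itga6* and *Lamc1* lie to the right in red, and *Lama4*, *Itga8* and *Lama1* to the right in blue.

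Nuclei with 0 *Pdgfra* UMIs had a different set of laminin chains from those with 2 or more, and a largely shared set of integrin chains with *Itga6* and *Itga8* as the main exceptions by level. Of the 26 members with at least 100 UMIs over both groups, 9 were at least 2-fold higher at 0 *Pdgfra* UMIs and 4 were at least 2-fold lower. Among all 14316 genes with that many UMIs, 8.49% were as much higher and 6.41% as much lower. The median ratio of the 26 members was 1.27, against 1.11 over all those genes, a shift of 0.15 on the log2 scale. When ratios were divided by the median of all genes, 9 members were higher and 4 lower, and the shares of all genes became 6.55% higher and 7.92% lower. By family, 5 of 8 laminin chains were higher and 2 lower, 3 of 13 alpha chains were higher and 1 lower, and 1 of 5 beta chains was higher and 1 lower.

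The laminin beta chains held the widest ratios. *Lamb1* had 96.6 CPM from 2579 UMIs at 0 *Pdgfra* UMIs and 6.79 CPM from 698 UMIs at 2 or more, a ratio of 14.2 (13.1 to 15.5). The ratio was 41.8 (36.2 to 48.5) without the 8% of nuclei with the highest doublet scores and 35.7 in nuclei with 10000 to 20000 UMIs. *Lamb2*, the other beta chain of laminins with *Lamc1*, had 4.27 and 0.253 CPM, a ratio of 16.9 (11.0 to 27.0) that rests on 114 and 26 UMIs. *Lamb3*, an epithelial beta chain, had 3.59 and 3.87 CPM, a ratio of 0.929 (0.736 to 1.16).

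The laminin alpha chains fell on opposite sides. *Lama4*, known from the basement membranes of vessels and adipocytes, had 52.9 CPM at 0 *Pdgfra* UMIs and 253 CPM at 2 or more, a level 4.78 times higher (4.53 to 5.04) in the latter. *Lama1*, the chain of the early embryonic basement membrane, had 5.09 and 19.2 CPM, a ratio of 0.265 (0.221 to 0.315). *Lama5*, a chain found in most mature basement membranes, had 11.5 and 1.67 CPM, a ratio of 6.90 (5.71 to 8.36). The alpha chains together summed to 70.4 CPM at 0 *Pdgfra* UMIs and 274 CPM at 2 or more, while the beta chains summed to 104 and 10.9 CPM. The gamma chain *Lamc1* had 267 and 111 CPM, a ratio of 2.40 (2.33 to 2.47).

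Among integrins, *Itga6* differed most by ratio of those at 10 CPM or more. It had 103 CPM from 2745 UMIs at 0 *Pdgfra* UMIs and 17.2 CPM from 1765 UMIs at 2 or more, a ratio of 5.99 (5.64 to 6.36). *Itga9*, a chain of a receptor for tenascin and osteopontin, had 56.1 and 25.2 CPM, a ratio of 2.22 (2.08 to 2.37). *Itga8* went the other way with 70.2 and 183 CPM, 2.60 times higher (2.48 to 2.73) at 2 or more. Of the scarce chains, the fibronectin receptor chain *Itga5* had 8.54 and 1.24 CPM, a ratio of 6.86 (5.50 to 8.59). *Itgb5*, a partner of *Itgav*, had 9.36 and 2.10 CPM, a ratio of 4.46 (3.70 to 5.37). *Itgb3*, another partner of *Itgav*, had 0.637 and 1.63 CPM from 17 and 168 UMIs, a ratio of 0.390 (0.222 to 0.643).

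The other abundant integrin chains stayed within 2-fold. *Itgb1* had 504 and 391 CPM, a ratio of 1.29 (1.26 to 1.31). *Itgav* had 110.1 and 108 CPM, a ratio of 1.02 (0.978 to 1.06), and *Itga1* had 66.9 and 69.9 CPM, a ratio of 0.957 (0.909 to 1.01). *Itgb8* had 77.9 and 90.7 CPM, a ratio of 0.858, and the *Itgb1* partner *Itga4* had 25.5 and 31.4 CPM, a ratio of 0.811. Divided by the median ratio of all genes, *Itgav* had 0.919 and *Itgb1* had 1.16.

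The direction of the large differences followed the number of *Pdgfra* UMIs, although deeper nuclei hold more of them. At 0, 1, 2 to 3, 4 to 7 and 8 or more *Pdgfra* UMIs, *Lamb1* had 96.6, 28.2, 9.83, 6.11 and 5.73 CPM. In the same order, *Xist* without a Y-linked UMI was found in 62.0%, 13.6%, 6.12%, 5.50% and 7.26% of nuclei. The part of this class in the steps was not tested. *Itga6* had 103, 46.8, 23.9, 16.2 and 14.4 CPM over the same bins. *Lama4* had 52.9, 179, 217, 249 and 277 CPM. The nuclei with 1 *Pdgfra* UMI thus lay between the groups for these 3 genes, and the widest step was the one from 0 to 1. *Itga8* rose from 70.2 to 151 CPM over that step and then had 170.2, 189 and 183 CPM.

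**Figure D2:**
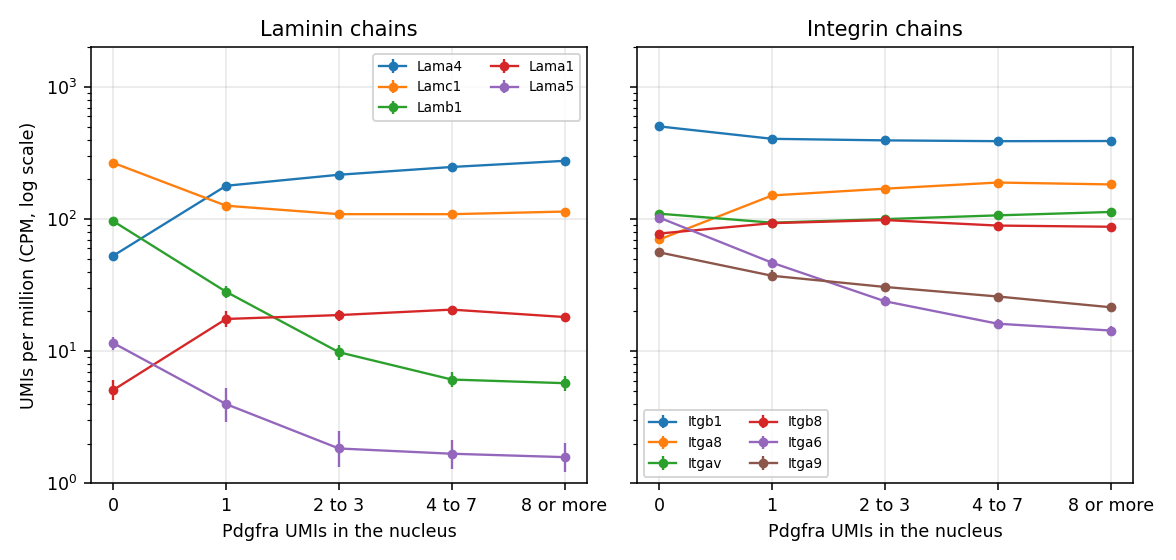
Level in CPM on a log scale of 5 laminin chains (left) and 6 integrin chains (right), in nuclei binned by their *Pdgfra* UMIs, with 95% exact Poisson intervals. *Lamb1*, *Lama5* and *Itga6* are highest at 0 *Pdgfra* UMIs, *Lama4* and *Itga8* are lowest there, and *Itgav* and *Itgb8* stay nearly level. The bins also differ in their share of nuclei with *Xist* and no Y-linked UMI.

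The *Pdgfra* groups overlapped strongly with the sex-linked classes, so the ratios were also taken within them. The classes were nuclei with *Xist* and no Y-linked UMI (1452 nuclei at 0 *Pdgfra* UMIs and 346 at 2 or more), nuclei with a Y-linked UMI and no *Xist* (462 and 1468) and nuclei with neither (345 and 3616). The 346 *Xist* nuclei with 2 or more *Pdgfra* UMIs had a median of 24543 UMIs, against 11256 in the 1452 with 0, and 59.5% of them had doublet scores in the highest 8%, against 0.895%. The ratios of this class were therefore also taken without those nuclei, which left 140 and 1439, a setting chosen after seeing the data. Since the culture pooled pups of either sex, a class may hold nuclei of several animals, and the library has no record of the animal. *Itga6* was more than 2-fold higher at 0 *Pdgfra* UMIs in each class, with ratios of 2.47, 3.01 and 4.42. *Itgb5* had 2.41, 2.72 and 3.76, and *Itga5* had 2.16, 3.31 and 4.86 from 7 and 13 UMIs in the Y-linked class. *Lama5* had 2.96, 2.31 and 3.90, where the interval of the Y-linked class (0.943 to 5.14) spanned 1. *Itga9* was under 2-fold in every class, with 1.82, 1.54 and 1.65. Without the highest doublet scores the ratios in *Xist* nuclei were 4.23 for *Itga6*, 3.33 for *Itgb5*, 3.29 for *Itga5*, 6.18 for *Lama5* and 2.61 for *Itga9*, where the last was then past 2-fold.

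*Lamb1* was highest in nuclei with *Xist*. It had 133 CPM in *Xist* nuclei with 0 *Pdgfra* UMIs and 42.2 CPM in *Xist* nuclei with 2 or more, a ratio of 3.15 (2.81 to 3.53) that became 6.90 (5.27 to 9.21) without the highest doublet scores. In the Y-linked class it had 4.43 and 2.23 CPM from 20 and 62 UMIs, a ratio of 1.98 (1.13 to 3.33), and in nuclei with neither it had 32.0 and 1.74 CPM, a ratio of 18.4 (14.0 to 24.1). Taken over all *Pdgfra* counts, *Xist* nuclei had 40.1 times the *Lamb1* level of Y-linked nuclei, 11.6 times the *Lama5* level and 3.95 times the *Itga6* level.

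The *Pdgfra* ratio of *Lama4* also varied with the class. In *Xist* nuclei it had 3.74 CPM at 0 *Pdgfra* UMIs and 194 CPM at 2 or more, a ratio of 0.0192 (0.0148 to 0.0247), or 0.0121 without the highest doublet scores. In Y-linked nuclei it had 178 and 236 CPM, a ratio of 0.754, and in nuclei with neither it had 145 and 274 CPM, a ratio of 0.529. Of the 1413 *Lama4* UMIs at 0 *Pdgfra* UMIs, 65 were in the *Xist* class, which held 62.0% of these nuclei. *Itga8* had ratios of 0.262, 0.924 and 0.578 and *Lama1* had 0.107, 0.707 and 0.642 in the same order, so neither was past 2-fold outside the *Xist* nuclei. *Lamc1* had 1.84 in *Xist* nuclei (2.57 without the highest doublet scores), 0.773 (0.689 to 0.866) in Y-linked nuclei and 1.26 in nuclei with neither, so its pooled direction did not hold in the Y-linked class. When all nuclei with a *Xist* UMI were left out, a setting chosen after seeing the data, 5 of 21 members were at least 2-fold higher and 1 was lower, beside 4.86% and 1.38% of all genes. Those higher were *Lamb1* with a ratio of 8.76, *Itga6* with 4.06, *Itgb5* with 3.61, *Itga5* with 3.58 and *Lama5* with 2.88, and the lower member was *Itgb3* with 0.290.

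**Figure D3:**
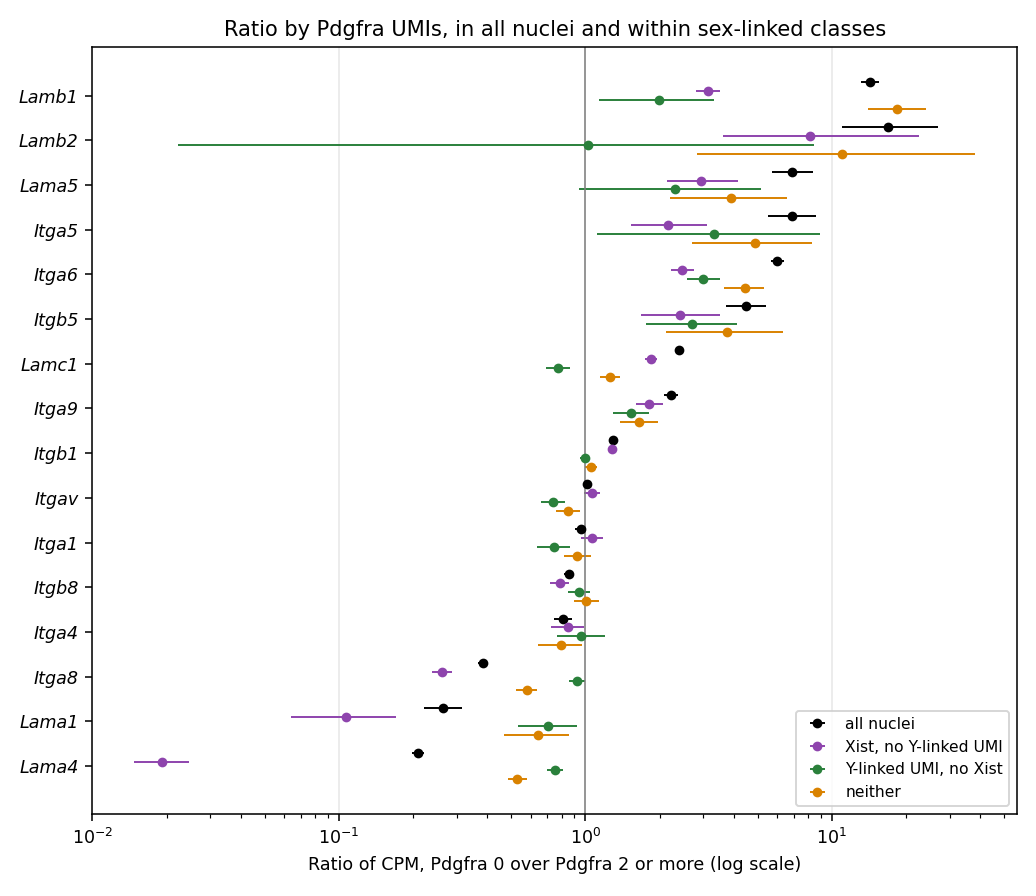
Ratio of CPM between nuclei with 0 and with 2 or more *Pdgfra* UMIs on a log scale, for 16 members, over all nuclei (black), nuclei with *Xist* only (purple), with Y-linked UMIs only (green) and with neither (orange), with 95% exact conditional binomial intervals. *Itga6* lies above 2 in every class, whereas *Lamc1* lies on both sides of 1 and *Lama4* runs from 0.0192 to 0.754.

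Possible receptors were then read from known pairs of chains. Of 24 known alpha-beta pairs, 7 had both chains at 10 CPM or more, and the same 7 pairs had them in each *Pdgfra* group. They were *Itgb1* with *Itga8*, *Itgav*, *Itga1*, *Itga6*, *Itga9* or *Itga4*, and *Itgav* with *Itgb8*. Nuclei were thinned to 5000 UMIs each to compare shares, which left out 75 nuclei with 0 *Pdgfra* UMIs and 37 with 2 or more. *Itga8* and *Itgb1* were found together in 33.9% (32.9 to 34.9) of 8760 nuclei, where the product of the shares of each chain was 34.1%. *Itgav* and *Itgb1* were found together in 34.2% against a product of 33.8%. *Itgav* and *Itgb8*, a pair known for releasing active TGF-β, were found together in 13.5% against a product of 13.4%. Over all nuclei the shares of the 7 pairs lay between 0.994 and 1.04 times the product. By the scarcer chain, *Itga8*-*Itgb1* led in CPM, whereas *Itgav*-*Itgb1* led per kb of gene span.

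The pairs of chains found together as RNA differed by *Pdgfra* group mainly through the alpha chain. These shares were not taken within the sex-linked classes, and no receptor protein was measured. *Itga6* and *Itgb1* were found together in 31.9% (29.9 to 33.8) of nuclei with 0 *Pdgfra* UMIs and in 5.90% (5.30 to 6.56) of those with 2 or more. *Itga8* and *Itgb1* were found together in 19.7% and 39.6%, and *Itga9* and *Itgb1* in 18.1% and 10.1%. *Itgav*-*Itgb1* ran at 37.3% and 33.5%, *Itga1*-*Itgb1* at 22.0% and 20.2%, and *Itga4*-*Itgb1* at 9.27% and 10.8%. The other partners of *Itgav* were rarely seen with it, at 0.845% for *Itgb5* and 0.251% for *Itgb3* over all nuclei. *Itga6* with *Itgb4* was seen in 4 of 8760 nuclei. The 4 pairs of *Itgb2* were seen in 0 of 8760 nuclei, where 3 counts of the total, the limit that a count of 0 allows, are 0.0342% of nuclei with UMIs of both chains.

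Laminin trimers could not be read from levels of the library alone. By levels over all nuclei, 2 of 13 known trimers had every chain at 10 CPM or more, namely *Lama4*-*Lamb1*-*Lamc1* and *Lama1*-*Lamb1*-*Lamc1*. At 0 *Pdgfra* UMIs, 2 trimers did, *Lama4*-*Lamb1*-*Lamc1* and *Lama5*-*Lamb1*-*Lamc1*, and at 2 or more none did, since *Lamb1* was at 6.79 CPM. In single nuclei *Lama4* and *Lamb1* were seldom together. They were found together in 1.05% (0.847 to 1.29) of nuclei, 0.190 times the product of their shares. Within the nuclei with 0 *Pdgfra* UMIs, where *Lama4* was in 16.8% and *Lamb1* in 33.0%, they were together in 0.794% (0.471 to 1.25) against a product of 5.54%. At 2 or more they were together in 1.17% against a product of 1.65%. The products take each group as uniform, although the sex-linked classes within it differed in both chains. The part of this mixture was not tested. The 3 chains *Lama4*, *Lamb1* and *Lamc1* were found together in 51 of 8760 nuclei, or 0.582%.

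At 0 *Pdgfra* UMIs *Lamb1* was found with *Lama5* in 59 nuclei and with *Lama4* in 18. *Lama5* and *Lamb1* were together in 0.810% of all nuclei, 3.28 times the product, and in 2.60% of those with 0 *Pdgfra* UMIs, 1.37 times the product. These shares, like those of *Lama4* with *Lamb1*, lie under the 3.45% given above for free RNA and doublets, so they are compared with their products only. That 3.45% was taken over 4 Y-linked genes in nuclei that were not thinned, so it is a rough guide here. *Lama5*, *Lamb1* and *Lamc1* were found together in 53 nuclei, about as many as held *Lama4*-*Lamb1*-*Lamc1*, although the level of *Lama4* was 209 CPM and that of *Lama5* was 3.73 CPM. *Lamb1* and *Lamc1* were together in 24.8% of nuclei with 0 *Pdgfra* UMIs and in 1.39% of those with 2 or more. *Lama4* and *Lamc1* were together in 5.47% and 26.1%. Of the 4 laminin pairs compared, *Lamb1*-*Lamc1* was thus the most frequent in the first group and *Lama4*-*Lamc1* in the second. Shares were not taken within the sex-linked classes. At 0 *Pdgfra* UMIs, *Lamb1* exceeded *Lama4* only in *Xist* nuclei, with 133 against 3.74 CPM. *Lamb1* was the lower one in the Y-linked class (4.43 against 178 CPM) and in nuclei with neither (32.0 against 145 CPM). Trimers with *Lamb2* were seen in 3 nuclei with *Lama5*, 1 with *Lama4* and 0 with *Lama1*. Laminin chains are known to assemble inside the cell, and no protein was measured here.

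**Figure D4:**
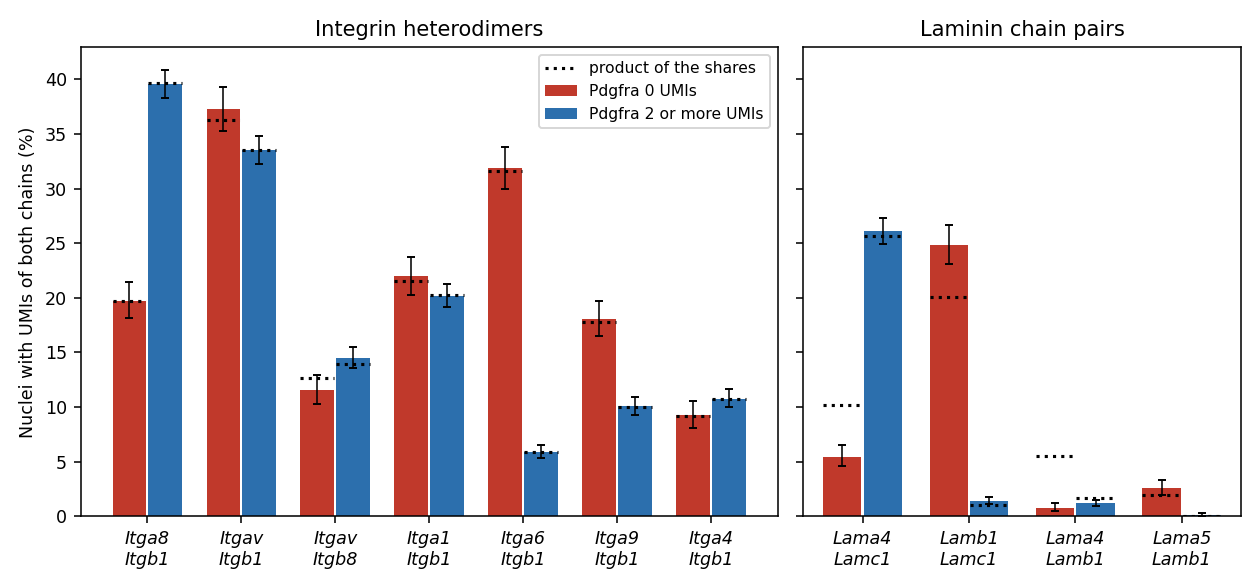
Share of nuclei, thinned to 5000 UMIs, with UMIs of both chains of 7 integrin pairs (left) and 4 pairs of laminin chains (right), at 0 (red, 2266 nuclei) and 2 or more (blue, 5539 nuclei) *Pdgfra* UMIs. Error bars are 95% exact binomial intervals and dotted lines are the product of the shares of each chain. Integrin pairs lie near the dotted line, and *Lama4* with *Lamb1* lies below it at 0 *Pdgfra* UMIs, at 0.794% against 5.54%.

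Shares were also taken for integrin alpha chains with a laminin chain or with each other. *Itga6* and *Lamb1* were together in 4.57% of nuclei, 2.69 times the product, and in 14.4% of those with 0 *Pdgfra* UMIs, 1.23 times the product. *Itga8* and *Lama4* were together in 25.0%, 1.24 times the product, and in 7.02% of those with 0 *Pdgfra* UMIs, 1.88 times the product. *Itga6* and *Itga8* were together in 4.42%, 0.716 times the product. The part of the mixture of the groups in the values over all nuclei was not tested. The part of the sex-linked classes in the values within the group with 0 *Pdgfra* UMIs was not tested.

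Other adhesion genes were described from a list of 39, of which 31 had at least 100 UMIs. At 0 *Pdgfra* UMIs 9 of them were at least 2-fold higher and 3 were lower, with a median ratio of 1.34, beside 8.49% higher, 6.41% lower and a median of 1.11 over all genes. Of 8 other integrin ligands, 5 were higher and 1 was lower. Tenascin C (*Tnc*), a matrix protein bound by *Itga9* and *Itgav* integrins, had 517 CPM at 0 *Pdgfra* UMIs and 129.8 CPM at 2 or more. Fibronectin (*Fn1*), the ligand of *Itga5*-*Itgb1*, had 38.3 and 4.04 CPM, a ratio of 9.46, and osteopontin (*Spp1*) had 16.3 and 7.39 CPM. *Ltbp1*, which holds latent TGF-β in the matrix, had 28.8 and 70.2 CPM, a ratio of 0.410. Of 6 laminin partners, 2 were higher and 0 lower, and perlecan (*Hspg2*), which binds laminin in basement membranes, had 43.3 and 13.0 CPM, a ratio of 3.32. Of 17 integrin adaptors and kinases, 2 were higher and 2 lower. The adaptor *Parva*, which links integrins to actin, had 92.6 and 26.5 CPM, a ratio of 3.50, and the remaining adaptors at 10 CPM or more were within 2-fold. Ratios of these adhesion genes were not taken within the sex-linked classes.

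Within the nuclei with 0 *Pdgfra* UMIs, the members varied with *Egfr*, the receptor of epidermal growth factor. Of 15 members with at least 100 UMIs, 1 was at least 2-fold higher with 2 or more *Egfr* UMIs (1125 nuclei) than with 0 (738 nuclei) and 3 were lower, where 1.66% and 4.41% of all genes were. *Itga6* was higher with a ratio of 2.02 (1.82 to 2.24), and *Lamb1* had 1.99 (1.79 to 2.23). *Lama4* was lower with 0.211, *Lama1* with 0.232 and *Itga8* with 0.424. *Xist* without a Y-linked UMI was found in 78.4% of the nuclei with 2 or more *Egfr* UMIs and in 34.6% of those with 0, and its part in these ratios was not tested.

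A small set of 96 nuclei with 2 or more UMIs of *Bnc2*, a zinc finger gene, differed in integrins from the 8673 nuclei with 0. Of 25 members with at least 100 UMIs, 8 were at least 2-fold higher and 2 were lower, where 5.78% and 7.12% of all genes were. The intervals of 4 of these 10 members spanned 1, since few UMIs lay in the 96 nuclei. *Itga1* had a ratio of 5.88 (5.40 to 6.38), while its partner *Itgb1* had 0.902. *Itgav* had a ratio of 2.00 and *Itga4* had 2.09, whereas *Itga6* had 0.349. Of these 96 nuclei, 80.2% were in the class with neither *Xist* nor Y-linked transcripts. In 503 nuclei with 2 or more UMIs of *Ralyl*, an RNA-binding protein gene, 0 of 26 members were at least 2-fold higher and 6 were lower than in the 7930 nuclei with 0, beside 2.17% and 2.75% of all genes. *Lamb1* had a ratio of 0.245 there, and 69.2% of these nuclei were in the Y-linked class.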

How the data were processed

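One library of single-nucleus RNA-seq (10x 3' v3.1) from cultured BB-p53n OPCs was analysed. The authors made the deposited matrix with Cell Ranger 8.0.1 on mm39, per the labels, and it holds raw UMI counts per gene and barcode with no normalization. Barcodes with 2000 to 8000 detected genes were kept. UMIs were summed over the nuclei of each group and divided by the group total (CPM). With 1 library no test was run, and intervals are 95% exact Poisson, conditional binomial (ratios) or Clopper-Pearson (shares). Precision follows the UMIs behind each value, 141138093 in all and 26704255 and 102872934 in the *Pdgfra* groups. Members and lists were chosen with earlier results of these data known. Every member at 10 CPM or more, or with at least 100 UMIs and a 2-fold ratio, was named, apart from 1 that is not reported here, and others were given as examples. Shares of nuclei used nuclei thinned at random to 5000 UMIs. Scrublet in scanpy 1.11.5 called 0 doublets at its automatic threshold, so its calls had not worked and none were removed. Of the 33696 genes, 33185 matched GENCODE vM39 on GRCm39, the build of mm39, by identifier. Alternatives were other nucleus filters, depth, *Pdgfra* cutoffs, scaling, sex-linked classes, count minimums, doublet removal and thinning. Python 3.11.15, numpy 2.4.6, scipy 1.17.1, pandas 2.3.3 and pysam 0.24.0 were used, and the ratios, intervals and thinning were checked on simulated data.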

Additional observations from a re-analysis of the deposited data

How the results depend on the processing

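The count of 9 members at least 2-fold higher at 0 *Pdgfra* UMIs became 15 with no count minimum and 4 with at least 500 UMIs, where 18.7% and 5.81% of all genes were higher. It became 3 with at most 5% mitochondrial UMIs, 5 with groups taken after thinning, 2 in Y-linked nuclei, 3 in nuclei with neither *Xist* nor a Y-linked UMI, 5 without nuclei with a *Xist* UMI and 3 without nuclei with a *Top2a* or *Mki67* UMI. The count of 4 lower members became 2, 1, 0, 1, 1 and 1 under these 6 settings in the same order. All 6 leave fewer UMIs, so that 11 to 21 members were past the minimum, and 3.98%, 4.63%, 1.97%, 4.77%, 4.86% and 2.86% of all genes were higher. In *Xist* nuclei without the highest doublet scores, 2 were lower. Some members still past the minimum also came within 2-fold. With groups taken after thinning, *Lamc1* had a ratio of 1.85, *Itga9* 1.67, *Itga8* 0.543 and *Lama1* 0.568. *Lamb1* with 13.9, *Itga6* with 4.92 and *Lama4* with 0.444 stayed past 2-fold there. The ratio of *Lamc1* turned from 2.40 to 0.773 in Y-linked nuclei and to 0.979 without *Xist* nuclei, and the cause was not tested. *Lamb1* stayed at least 2-fold higher in the 15 settings that left it past the minimum (3.15 to 41.8) and *Itga6* in 16, whereas *Lama4* stayed 2-fold lower in 13 of 16 and *Itga8* in 10 of 16. Y-linked nuclei left *Lamb1* under the minimum, with 20 and 62 UMIs and a ratio of 1.98 (1.13 to 3.33). Of 2 trimers at level, 1 was left at 20 CPM. The share of nuclei with *Itga8* and *Itgb1* was 20.4% when thinned to 3000 UMIs and 60.1% with no thinning, so shares hold for their depth only. The other 35 counts and shares stayed within their limits. Of the ratios of named members over the settings, 114 stayed within their limits, 134 moved and 2 reversed. No paired analysis was possible because 1 library was analysed. With no replicate, the spread between cultures is unknown.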
